A study of Arabidopsis thaliana with 48 samples.

Results

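The jasmonate ZIM-domain (JAZ) genes described here are 10 loci of *Arabidopsis thaliana*: JAZ1 (AT1G19180), JAZ2 (AT1G74950), JAZ3 (AT3G17860), JAZ5 (AT1G17380), JAZ6 (AT1G72450), JAZ7 (AT2G34600), JAZ8 (AT1G30135), JAZ9 (AT1G70700), JAZ10 (AT5G13220) and JAZ12 (AT5G20900). They were taken by locus from 32678 gene identifiers in the count tables, and all 10 were among the 21098 genes tested, which had over 100 counts summed over libraries. Shoot and root libraries were made from plants aged 5 weeks, of 2 genotypes. The *myc2-3* mutant carries a T-DNA insertion in MYC2, and the MYC2–FLAG line is the *jin1-8* mutant complemented with a FLAG-tagged MYC2 expressed from the MYC2 promoter (pMYC2::MYC2–FLAG). Wild-type plants were not analysed here, so the plants of both genotypes carry a mutated native MYC2 gene. All plants grew in the gnotobiotic FlowPot system, either germ-free (−BFO) or with a synthetic community of bacteria, fungi and oomycetes (+BFO). They received either normal light (NC) or light of low photosynthetically active radiation (LP, labelled shade). The design gives 16 conditions of 3 replicate libraries, 48 in all.

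JAZ proteins are repressors of the jasmonate (JA) response. In their presence MYC2 and related bHLH activators are held inactive through the adaptor NINJA and the corepressor TOPLESS. When JA-isoleucine accumulates, the receptor COI1 binds JAZ proteins and marks them for degradation, and the released MYC factors activate JA-responsive genes. JAZ genes are among those targets, so JAZ transcripts are widely read as reporters of JA signalling and form a negative feedback on it. JAZ1 and JAZ2 are close paralogues, as are JAZ5 and JAZ6, and JAZ7 and JAZ8. JAZ3 and JAZ9 fall with JAZ4 in another clade, and JAZ10 is known for splice variants that resist degradation.

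MYC factors bind the G-box, written CACGTG, and close variants of it, so the 250 bases upstream of each annotated start in the RefSeq annotation of TAIR10.1 were searched on both strands. CACGTG is its own reverse complement. It was present upstream of 4 of the 10 JAZ genes and of 6.49% of 27443 protein-coding genes. The variant CACATG, which reads CATGTG on the other strand, was present upstream of JAZ9 and JAZ10 and of 11.1% of all promoters of the same length. No gene among the 10 held both motifs. The matching stretches are shown 5′ to 3′ on the strand of the gene because they are the letters the targeted factor is known to read. Capitals mark the match. A match is a description of letters and does not show binding.
JAZ2 (chr1:28150487-28150532, minus strand): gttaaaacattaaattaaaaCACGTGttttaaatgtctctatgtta
JAZ3 (chr3:6119547-6119650, plus strand): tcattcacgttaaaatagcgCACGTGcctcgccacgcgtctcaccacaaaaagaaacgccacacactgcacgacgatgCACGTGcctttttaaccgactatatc
JAZ7 (chr2:14572976-14573021, plus strand): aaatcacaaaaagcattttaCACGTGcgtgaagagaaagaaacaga
JAZ8 (chr1:10596322-10596351, plus strand): gtgtggaaaaaaacattttcCACGTGagag
JAZ9 (chr1:26654490-26654528, plus strand): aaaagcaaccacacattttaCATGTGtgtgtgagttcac
JAZ10 (chr5:4218701-4218746, plus strand): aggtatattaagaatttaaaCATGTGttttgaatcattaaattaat

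JAZ3 held 2 G-boxes, 140 and 82 bases before the start. The G-box of JAZ2 lay 66 bases before the start, that of JAZ7 34 bases and that of JAZ8 10 bases. CATGTG lay 19 bases before the start of JAZ9 and 65 bases before that of JAZ10. Neither motif was in the window of JAZ1, JAZ5, JAZ6 or JAZ12.

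Gene counts per library ran from 5162823 to 11045467, of which the JAZ genes took 1454 to 6131. Averaged over light and BFO, the *myc2-3* libraries had less MYC2 mRNA in both tissues, with log2 fold changes against MYC2–FLAG of -3.71 in shoots and -2.27 in roots (edgeR, Benjamini-Hochberg adjusted p of 6.76e-18 and 5.5e-13). The green-tissue gene RBCS1A had 9370 to 15191 CPM (counts scaled to a common library total after TMM normalization) in shoots and 9.04 to 87.0 CPM in roots, and the root-hair gene EXPA7 had 0 counts in all 24 shoot libraries and at least 14.6 CPM in each root library. Tissue labels and the genotype label therefore carried the marker levels they name. Because each genotype was a separate sequencing project, project and genotype effects cannot be told apart. The study's methods also state that in many *myc2-3* samples most reads came from a latent virus. From the way the *myc2-3* samples clustered, the authors judged its effect on plant transcripts not significant. The libraries concerned are not identified here, and the part of the virus in the JAZ differences was not tested. Reads with more than 1 alignment took 5.32% to 5.90% of the counts in MYC2–FLAG roots under LP −BFO and 2.67% to 5.23% in *myc2-3* shoots under LP +BFO, above every other library of the same tissue and genotype. The labels number the replicates without saying which pots or plants they hold, so p-values measure a spread between libraries and not between known plants. That spread was estimated for each gene over all 48 libraries together. It is not the spread of the groups compared, so p-values and ± values do not show how uneven a single group was. In bulk tissue, fewer cells expressing a gene and less RNA per cell cannot be told apart.

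The condition labels did not carry over between the genotypes for BFO in roots and for some of the shoot conditions, and JAZ results that compare single conditions rest on these labels. Mean log2 CPM profiles were centred within each genotype and correlated between genotypes over 18945 genes in roots. Each of the 4 root conditions had a negative correlation with its own label, from r = -0.80 to -0.52, and each *myc2-3* profile was most like the MYC2–FLAG profile of the same light level and the opposite BFO label, with r from 0.59 to 0.80. In shoots, over 17969 genes, the LP −BFO profiles matched best under the same label (r = 0.73), whereas *myc2-3* NC −BFO was most like MYC2–FLAG LP +BFO (r = 0.84) and had r = -0.34 with its own label. *myc2-3* LP +BFO had r = -0.70 with its own label and was most like MYC2–FLAG NC +BFO (r = 0.67). *myc2-3* NC +BFO had r = 0.62 with its own label and 0.63 with NC −BFO, the best match by a small margin. These are descriptions over genes of means of 3 libraries. Conditions are given below as labelled. A comparison averaged over the 4 conditions of a tissue does not change if labels are exchanged within a genotype, and it is given beside the single conditions. For the comparisons within a genotype, an exchange of BFO labels alone would turn the sign of the BFO difference. In shoots some best matches also differed in light. An exchange across light levels would turn a light or BFO comparison into another one. Whether any labels were exchanged was not tested.

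Levels differed widely between the JAZ genes. Per kilobase of transcript, JAZ9 had the highest mean in shoots, 73.1 CPM per kb with libraries between 31.0 and 166, followed by JAZ12 with 68.5 (54.7 to 107) and JAZ6 with 51.0 (30.5 to 106). JAZ1 had 32 and JAZ2 26.4 CPM per kb. The ranges of all of these neighbours overlapped, so their order is not separated by the libraries. JAZ3 followed with 7.18 CPM per kb (3.52 to 13.5), below the lowest JAZ2 library at 15.9. Its range overlapped that of JAZ1, whose lowest library had 6.35, and that of JAZ7, whose highest had 8.68. JAZ7 (2.51), JAZ10 (1.86), JAZ5 (0.89) and JAZ8 (0.52) formed the low end, again with overlapping ranges.

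In roots the order changed. JAZ12 had 57.4 CPM per kb (46.5 to 72.0) and JAZ1 had 50.9 (33.3 to 94.0), with overlapping libraries. JAZ2 had 29.4, JAZ3 16.8, JAZ6 11.5 and JAZ9 5.13 CPM per kb, each overlapping its neighbour in the order. JAZ7 (2.22), JAZ5 (1.91), JAZ10 (0.49) and JAZ8 (0.35) were again the 4 lowest. JAZ8 was at the limit of detection, with at most 3 counts over the 3 libraries in 7 of the 16 conditions, and no fold is given between 2 such conditions.

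Of the JAZ genes, 5 of 10 were called between shoots and roots in each genotype, where a call asks for a change of 2-fold or more (1 on the log2 scale) with an adjusted p below 0.05, against 45.8% of all genes tested in MYC2–FLAG and 48% in *myc2-3*. The same 5 genes moved the same way in both. JAZ9 was far more abundant in shoots, with log2 fold changes of 3.97 ± 0.19 (SE, 12 libraries per tissue) in MYC2–FLAG and 4.22 ± 0.19 in *myc2-3*, or 15.7-fold and 18.6-fold (edgeR adjusted p of 1.75e-22 and 4.27e-23). JAZ6 was higher in shoots by 1.95 ± 0.11 and 2.41 ± 0.11 on the log2 scale and JAZ10 by 1.75 ± 0.26 and 1.94 ± 0.29. JAZ3 was lower in shoots, with log2 fold changes of -1.35 ± 0.08 and -1.19 ± 0.08, and so was JAZ5, with -1.22 ± 0.29 and -1.29 ± 0.31. The paralogues JAZ5 and JAZ6 thus lay on opposite sides of the shoot to root comparison. JAZ1 was lower in shoots by less than the fold threshold, with log2 values of -0.76 and -0.97. Without MYC2–FLAG shoot LP +BFO replicate 3 it passed in MYC2–FLAG at -1.14, and it passed in *myc2-3* at between -1.06 and -1.02 without any one of 3 shoot libraries, NC −BFO replicate 3, LP −BFO replicate 1 or LP +BFO replicate 2. JAZ7 passed in MYC2–FLAG at -1.50 without LP −BFO replicate 2.

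**Figure D1:**
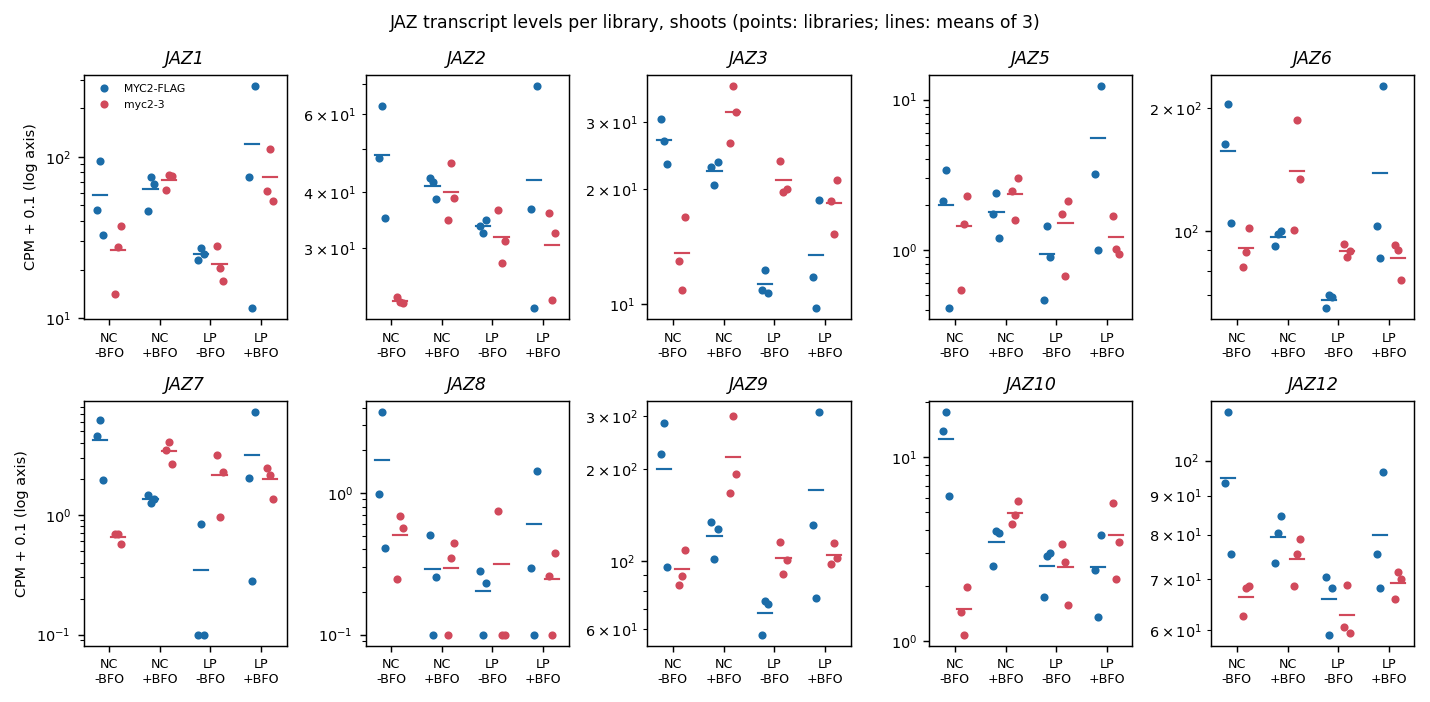
Transcript levels of the 10 JAZ genes in the 24 shoot libraries, as CPM plus 0.1 on a log axis, for NC and LP without and with BFO. Points are libraries and short lines are means of 3, blue for MYC2–FLAG and red for *myc2-3*. The MYC2–FLAG libraries spread most under NC −BFO and LP +BFO, where JAZ1 ran from 11.5 to 275 CPM.

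In MYC2–FLAG shoots without microorganisms, JAZ transcripts were lower under LP than under NC. All 10 log2 fold changes were negative, with a median of -1.23, and 7 genes (JAZ1, JAZ3, JAZ6, JAZ7, JAZ8, JAZ9 and JAZ10) were called lower, against 7.98% of all genes called lower in that comparison. JAZ3, the member first identified through a dominant JA-insensitive allele, had 30.4, 26.7 and 23.1 CPM under NC and 10.8, 12.2 and 10.6 CPM under LP. Its groups did not overlap and its log2 fold change was -1.25 ± 0.17 (edgeR adjusted p = 2.05e-07). JAZ10 had 13.8, 17.5 and 6.02 CPM under NC and 1.62, 2.81 and 2.91 CPM under LP, a log2 fold change of -2.30 ± 0.43 (adjusted p = 3.31e-05). JAZ7, which carries an EAR motif that contacts TOPLESS without NINJA, had 4.43, 6.06 and 1.85 CPM under NC. Under LP, JAZ7 had 0, 0.733 and 0 CPM, and its log2 fold change was -3.81 ± 0.78 (adjusted p = 0.000113). Replicate 2 held all 6 counts of JAZ7 under LP, and the value was -8.08 without it, which depends on the prior count, and -3.21 without LP −BFO replicate 3. In all of these genes each NC library lay above each LP library. Overlap is described for the JAZ genes only, here and below, and its share over all genes was not computed. JAZ12, called in none of the 24 comparisons of genotype, BFO or light, had no overlap in 7 of them.

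JAZ9 fell in the same comparison by 1.56 ± 0.31 on the log2 scale, from 224, 284 and 95.8 CPM to 57.5, 73.9 and 72.3 CPM. JAZ6 had 163, 204 and 105 CPM under NC and 64.9, 70.0 and 69.1 CPM under LP (log2 fold change -1.21 ± 0.21), and JAZ1 changed by -1.21 ± 0.48 (adjusted p = 0.0372). JAZ8 had 30 counts in total under NC and 2 under LP, a ratio of 15.8 with an exact 95% interval of 4.02 to 137 that covers counting error only. The NC −BFO libraries were themselves uneven, with replicate 2 highest and replicate 3 lowest for JAZ1, JAZ6, JAZ7, JAZ8, JAZ9 and JAZ10. Without replicate 2, 4 of the 7 remained called and JAZ1, JAZ6 and JAZ8 did not, with JAZ1 at -0.68 and JAZ6 at -0.98. The call of JAZ1 was also lost without any one of the 3 LP −BFO libraries.

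In *myc2-3* shoots without microorganisms, no JAZ gene was called between LP and NC by edgeR, against 7.26% of all genes, with 3 at an unadjusted p under 0.05, none by limma-voom and 1 by DESeq2. JAZ7 had 0.592, 0.590 and 0.468 CPM under NC and 3.09, 0.859 and 2.19 CPM under LP. It reached the call at a log2 fold change of 2.25 (adjusted p = 0.044) without LP −BFO replicate 2. The light response differed between the genotypes by the interaction test for 6 genes, against 16.6% of all genes. The differences, *myc2-3* minus MYC2–FLAG, were 5.65 ± 1.13 for JAZ7, 3.09 ± 0.71 for JAZ10, 1.88 ± 0.25 for JAZ3, 1.69 ± 0.44 for JAZ9, 1.19 ± 0.30 for JAZ6 and 1.01 ± 0.32 for JAZ2 on the log2 scale. In each of these 6 genes the shoots labelled NC −BFO had the highest mean CPM of the MYC2–FLAG shoot conditions, and in all of them except JAZ6 the lowest mean of the *myc2-3* ones. It is a condition in which the profiles of all genes did not match between genotypes. The JAZ2 call was lost without any one of 4 libraries and the JAZ6 call without MYC2–FLAG NC −BFO replicate 2, at 0.96. The JAZ7 difference was 9.93 without MYC2–FLAG LP −BFO replicate 2, which left JAZ7 at 0 counts in that group, and 5.06 without replicate 3.

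With microorganisms, 1 JAZ gene was called for light in shoots of each genotype. The median over the 10 genes was 0.51 on the log2 scale in MYC2–FLAG and -0.54 in *myc2-3*, where 9 of 10 values were negative, beside 0.08 in *myc2-3* without microorganisms. JAZ5 was called higher under LP in MYC2–FLAG, by 1.71 ± 0.59 (adjusted p = 0.0159), against 10.5% of all genes called higher, and JAZ9 lower under LP in *myc2-3*, with -1.06 ± 0.31 (adjusted p = 0.00785), against 3.12% of all genes called lower. JAZ5 had 1.63, 2.29 and 1.1 CPM under NC and 3.11, 0.895 and 12.3 CPM under LP, so that the groups overlapped and replicate 3 stood far above the others. Without that library the JAZ5 value was 0.23 and JAZ3 was called instead, at -1.06. The JAZ5 call was also lost without NC +BFO replicate 3. Without LP +BFO replicate 2, which was the lowest of its group, JAZ1 (1.48) and JAZ7 (1.87) passed beside JAZ5, and JAZ1 passed at 1.19 without replicate 1. JAZ9 in *myc2-3* had 167, 298 and 193 CPM under NC and 98.3, 115 and 103 CPM under LP. The groups did not overlap, and the value was -0.78 and not called without NC +BFO replicate 2. The light response with BFO differed between the genotypes for JAZ5 (-2.75), JAZ6 (-1.22), JAZ7 (-2.12) and JAZ9 (-1.56), against 24.6% of all genes, and for none of them without MYC2–FLAG LP +BFO replicate 3. JAZ5 also lost its call without *myc2-3* NC +BFO replicate 3, JAZ6 without *myc2-3* NC +BFO replicate 2 and JAZ7 without any one of 7 other libraries. Without MYC2–FLAG LP +BFO replicate 2 JAZ1 passed as well, at -1.43.

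The BFO community was associated with opposite JAZ differences in shoots of the genotypes under NC. In MYC2–FLAG, 3 genes were called lower with BFO (JAZ7, JAZ8 and JAZ10), against 2.95% of all genes, and in *myc2-3*, 5 were called higher (JAZ1, JAZ3, JAZ7, JAZ9 and JAZ10), against 8.86%. JAZ10 had 13.8, 17.5 and 6.02 CPM without BFO and 2.45, 3.87 and 3.76 CPM with BFO in MYC2–FLAG, for a log2 fold change of -1.89 ± 0.42 (edgeR adjusted p = 0.000847). In *myc2-3* the same gene had 1.33, 0.983 and 1.87 CPM without BFO and 4.25, 4.71 and 5.67 CPM with BFO, a log2 fold change of 1.77 ± 0.53 (adjusted p = 0.00714). Neither pair of groups overlapped. JAZ7 changed by -1.69 ± 0.61 in MYC2–FLAG and by 2.54 ± 0.76 in *myc2-3*. The differences between the genotypes passed the interaction test for 6 genes (JAZ2, JAZ3, JAZ6, JAZ7, JAZ9 and JAZ10), against 11.2% of all genes, and were largest for JAZ7 (4.24 ± 0.97) and JAZ10 (3.66 ± 0.67). The JAZ2 difference (1.04) lost its call without any one of 4 libraries, and the other 5 held with each library left out.

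JAZ3 in *myc2-3* shoots under NC had 12.9, 10.8 and 16.9 CPM without BFO and 26.3, 37.2 and 31.6 CPM with it, a log2 fold change of 1.21 ± 0.18 (adjusted p = 5.26e-07). JAZ9 had 83.4, 89.6 and 109 CPM without BFO and 167, 298 and 193 CPM with it, and JAZ1 had 14.1, 27.7 and 37.2 CPM without and 61.8, 77.3 and 76.0 CPM with it. All 3 genes were higher with BFO in each library. The JAZ1 call was lost without NC −BFO replicate 1 (1.13) and the JAZ9 call without NC +BFO replicate 2 (0.94). In MYC2–FLAG the count of 3 was 1 without NC −BFO replicate 2 or without NC +BFO replicate 2 or replicate 3, was 2 without NC −BFO replicate 1 or NC +BFO replicate 1, and was 4 without NC −BFO replicate 3, when JAZ9 passed at -1.06. JAZ10 kept its call in all of these.

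Under LP, 5 JAZ genes were called higher with BFO in MYC2–FLAG shoots (JAZ1, JAZ5, JAZ6, JAZ7 and JAZ9), against 5.54% of all genes, and the median over the 10 genes was 1.18 on the log2 scale. JAZ1 had 22.9, 27.0 and 24.8 CPM without BFO and 75.1, 11.5 and 275 CPM with BFO, a log2 fold change of 2.28 ± 0.48 (edgeR adjusted p = 0.000294). The +BFO libraries lay on both sides of the −BFO group. JAZ9 had 57.5, 73.9 and 72.3 CPM without BFO and 131, 75.9 and 308 CPM with it, and JAZ7 had 0, 0.733 and 0 CPM without and 1.95, 0.179 and 7.15 CPM with it. In each of the 10 genes replicate 3 was the highest +BFO library. Without it none of the 5 genes was called, and the log2 fold changes fell from 2.28 to 0.78 for JAZ1, from 2.63 to 1.15 for JAZ5, from 1.03 to 0.48 for JAZ6, from 3.44 to 1.84 for JAZ7 and from 1.34 to 0.60 for JAZ9. Without LP −BFO replicate 2, which held all JAZ7 counts of its group, the JAZ7 value was 7.71. The JAZ6 call was also lost without LP −BFO replicate 1.

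In *myc2-3* shoots under LP, JAZ1 was the single gene called with BFO, against 4.91% of all genes called higher. It had 27.8, 20.3 and 17.0 CPM without BFO and 61.0, 111 and 53.5 CPM with it, a log2 fold change of 1.77 ± 0.49 (adjusted p = 0.00655), with no overlap. Without LP +BFO replicate 2 the value was 1.39 and was not called. The LP +BFO libraries were those with 2.67% to 5.23% of reads with several alignments, against 1.71% to 2.1% under LP −BFO, and the part of this was not tested. JAZ1 was the JAZ gene with a positive call for BFO at LP in both genotypes, although the MYC2–FLAG value rests on 1 library. The genotypes differed in their BFO response under LP for JAZ5 (-2.91), JAZ6 (-1.09), JAZ7 (-3.54) and JAZ9 (-1.30), against 15.9% of all genes, and for none of them without MYC2–FLAG LP +BFO replicate 3. JAZ5 also lost its call without any one of 6 other libraries, and JAZ7 was at -7.81 without MYC2–FLAG LP −BFO replicate 2.

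The BFO difference changed with light in MYC2–FLAG shoots. The interaction, the BFO difference under LP minus that under NC, was positive in all 10 genes with a median of 1.96 and was called for 7 of them, against 17.5% of all genes. The values were 5.13 ± 1.02 for JAZ7, 2.76 ± 0.95 for JAZ5, 2.15 ± 0.66 for JAZ1, 2.07 ± 0.43 for JAZ9, 1.85 ± 0.67 for JAZ10 and 1.73 ± 0.30 for JAZ6, and JAZ8, also called, has too few counts for its value to be read. JAZ6, JAZ7 and JAZ9 kept the call with any one library left out, and 3 genes were called without LP +BFO replicate 3 and also without NC −BFO replicate 2. The JAZ7 value ran from 3.53 without LP +BFO replicate 3 to 9.40 without LP −BFO replicate 2, and that of JAZ9 was 1.33 without LP +BFO replicate 3. In *myc2-3* shoots JAZ3 was the single gene called, with an interaction of -1.40 ± 0.25 (adjusted p = 9.24e-05), against 6.66% of all genes. JAZ7 and JAZ9 had values of -2.65 and -1.18 there and were called without 1 library each, at -3.05 without LP −BFO replicate 2 and at -1.35 without NC +BFO replicate 1.

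**Figure D2:**
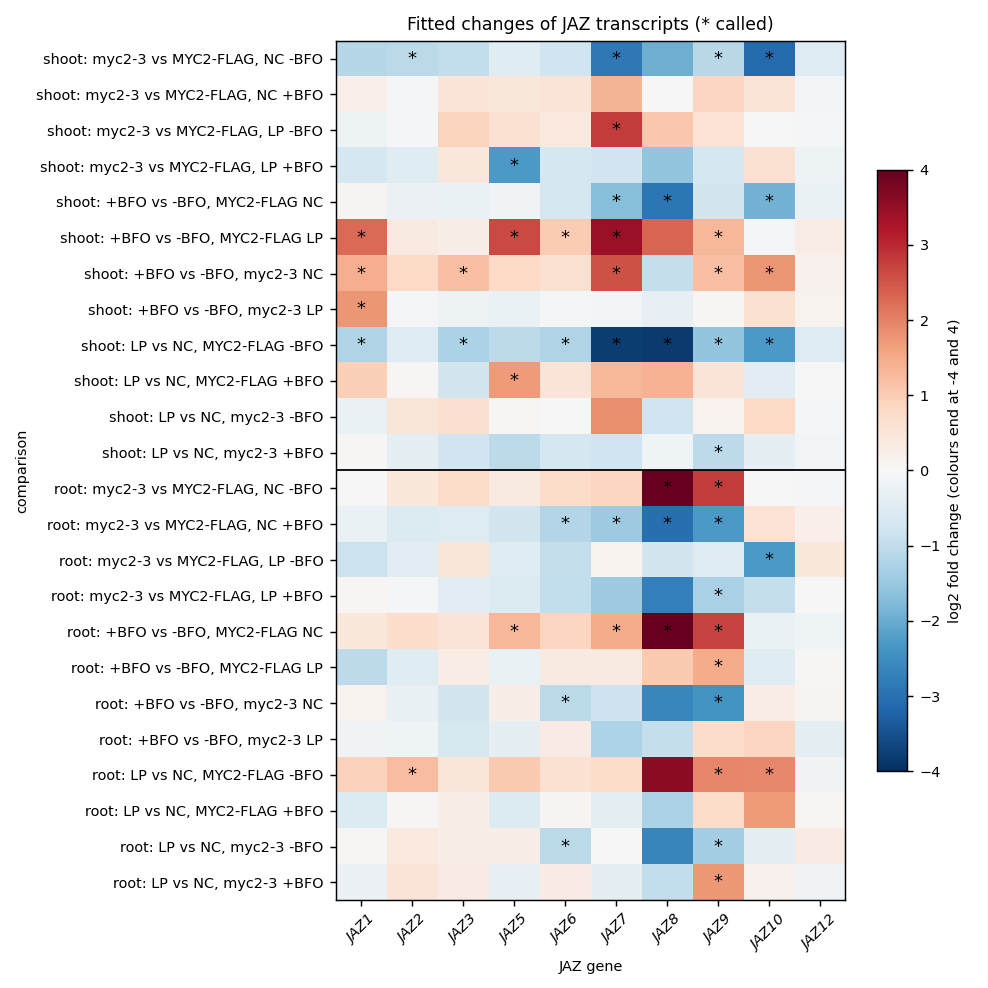
Fitted log2 fold changes of the 10 JAZ genes (columns) in 24 comparisons (rows), shoots above and roots below the line, with asterisks on called values and colours that end at -4 and 4. JAZ9 had 14 called values and JAZ12 had 0, and JAZ8 values with few counts in a group depend on the prior count.

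Between the genotypes in shoots, JAZ transcripts were lower in *myc2-3* under NC −BFO. All 10 values were negative, with -1.09 as the median log2 fold change, and JAZ2, JAZ7, JAZ9 and JAZ10 were called, against 8.44% of all genes called lower. JAZ2, which is known from stomatal guard cells, had 47.7, 62.5 and 35.0 CPM in MYC2–FLAG and 23.1, 22.6 and 22.5 CPM in *myc2-3*, a log2 fold change of -1.09 ± 0.23 (edgeR adjusted p = 0.000141). JAZ10 had a log2 fold change of -3.12 ± 0.48 (adjusted p = 1.27e-06) and JAZ7 of -2.87 ± 0.72 (adjusted p = 0.00129). Libraries of the genotypes did not overlap for these 3 genes and overlapped for JAZ9, with -1.10 ± 0.31. The count was 2 without MYC2–FLAG NC −BFO replicate 2, when JAZ2 (-0.87) and JAZ9 (-0.77) lost the call. It was 8 without replicate 3 of that group and 6 without *myc2-3* NC −BFO replicate 3.

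In the other shoot conditions few JAZ genes differed between the genotypes. Under NC +BFO edgeR called none, against 3.9% of all genes, with 4 at an unadjusted p under 0.05 and none by limma-voom or DESeq2. JAZ9 passed at 1.01 without *myc2-3* NC +BFO replicate 1. Under LP −BFO JAZ7 was higher in *myc2-3* with a log2 fold change of 2.79 ± 0.87 (adjusted p = 0.0255), against 1.61% of all genes called higher, and its call was lost without any one of 4 libraries, replicates 1 and 3 of either genotype. Without MYC2–FLAG replicate 2 it was 7.06, against a group at 0 counts. Under LP +BFO JAZ5 was lower in *myc2-3* with -2.29 ± 0.65 (adjusted p = 0.00345), against 9.39% of all genes called lower. Its libraries overlapped, and without MYC2–FLAG replicate 3 the value was -0.81 and not called. Without MYC2–FLAG replicate 2, JAZ1 (-1.24) and JAZ9 (-1.07) passed as well.

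Averaged over the 4 conditions, no JAZ gene was called between the genotypes in either tissue by edgeR, limma-voom or DESeq2, against 1.96% of all genes in shoots and 1.33% in roots. In each tissue 3 genes had an unadjusted p under 0.05. In shoots JAZ2 had a log2 fold change of -0.42 (95% interval -0.65 to -0.20, adjusted p = 0.00332) and JAZ12 of -0.22 (-0.34 to -0.10, adjusted p = 0.00411), both under the fold threshold. In roots JAZ6 had -0.60 (-0.83 to -0.36, adjusted p = 0.000173). The median over the 10 genes was -0.32 in shoots and -0.30 in roots. The intervals of the low genes were wide, with -2.27 to 1.03 for JAZ8 in shoots, so that a difference of the called size was not detectable there at this depth.

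**Figure D3:**
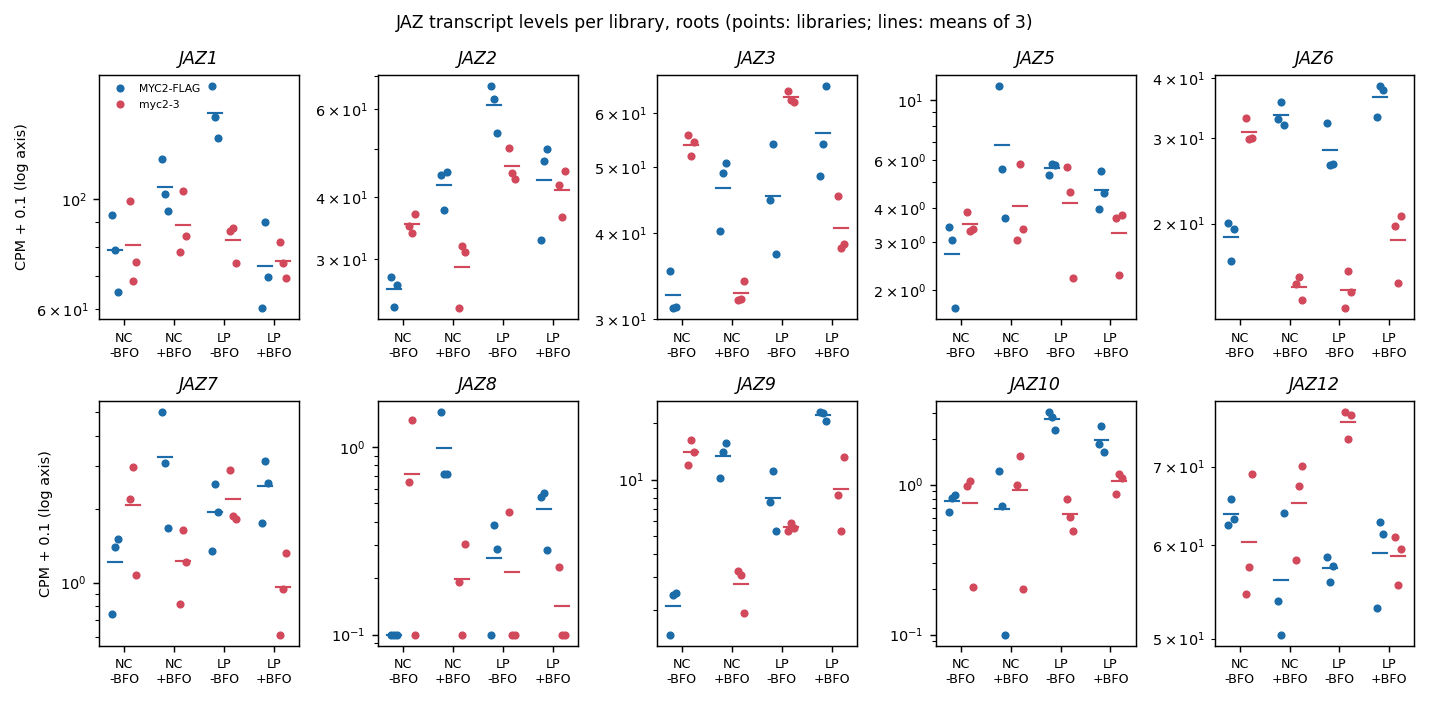
Transcript levels of the 10 JAZ genes in the 24 root libraries, as CPM plus 0.1 on a log axis, drawn as for shoots. JAZ9 lay lowest in MYC2–FLAG NC −BFO, at 1.38 to 2.38 CPM, and in *myc2-3* NC +BFO, at 1.83 to 3.14 CPM, and JAZ8 points at 0.1 are libraries with 0 counts.

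In roots, JAZ9 was the JAZ gene with the most calls. Under NC it had 1.38, 2.30 and 2.38 CPM without BFO and 10.2, 13.9 and 15.6 CPM with BFO in MYC2–FLAG, for a log2 fold change of 2.70 ± 0.46 (edgeR adjusted p = 1.03e-05). In *myc2-3* it had 11.9, 16.2 and 13.9 CPM without BFO and 3.14, 3.00 and 1.83 CPM with BFO, a log2 fold change of -2.38 ± 0.44 (adjusted p = 6.06e-05). The genotypes thus had opposite BFO differences with no overlap of libraries in either, and the interaction was -5.09 ± 0.63 (adjusted p = 1.57e-08). Under NC, reads with several alignments were more frequent in the groups where JAZ9 was higher. They took 3.33% to 4.61% with BFO and 1.86% to 2.88% without in MYC2–FLAG, and 2.23% to 2.68% with and 2.85% to 4.12% without in *myc2-3*. Their part in the difference was not tested. The levels of JAZ9 in *myc2-3* NC −BFO and MYC2–FLAG NC +BFO overlapped, as did those in *myc2-3* NC +BFO and MYC2–FLAG NC −BFO, which is the pairing of labels that the profiles of all genes also had. Averaged over conditions, JAZ9 in roots differed between the genotypes by -0.33 on the log2 scale (95% interval -0.78 to 0.11).

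Under LP, JAZ9 in MYC2–FLAG roots had 7.49, 11 and 5.19 CPM without BFO and 22.9, 22.5 and 20.4 CPM with it, a log2 fold change of 1.47 ± 0.37 (adjusted p = 0.00132). It was the single gene called in that comparison, against 7.96% of all genes called higher. Reads with several alignments took 5.32% to 5.90% without BFO and 2.36% to 2.75% with it in these libraries. Here they were less frequent where JAZ9 was higher, unlike under NC. In *myc2-3* roots under LP edgeR called no JAZ gene for BFO, against 16.4% of all genes, with 2 at an unadjusted p under 0.05 and none by limma-voom or DESeq2. JAZ9 had 5.24, 5.78 and 5.42 CPM without BFO there and 8.19, 5.19 and 13.1 CPM with it, and the groups overlapped. The interaction of light and BFO in *myc2-3* roots was called for JAZ9 (3.08 ± 0.61) and JAZ6 (1.41 ± 0.33), against 12.3% of all genes, and in MYC2–FLAG roots for JAZ2 alone (-1.20 ± 0.30), against 6.15%.

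Of the other JAZ genes in roots, 4 in all were called higher with BFO in MYC2–FLAG under NC (JAZ5, JAZ7, JAZ8 and JAZ9), against 4.89% of all genes, and JAZ6 and JAZ9 were called lower with BFO in *myc2-3* under NC, against 3.48%. JAZ8, the paralogue of JAZ7, had 0 counts in all 3 libraries of MYC2–FLAG NC −BFO and 28 counts with BFO. With 3 counts over the group taken as the limit for a count of 0, the ratio to that limit was 9.78 with BFO, where the libraries had 14, 7 and 7 counts. It was 7.75 for *myc2-3* NC −BFO, which had 21 counts, as 5, 16 and 0 in its libraries. Both ratios take the counts of the higher group as exact and are not lower limits. JAZ6 in *myc2-3* had 32.9, 29.8 and 30.0 CPM without BFO and 14.9, 15.4 and 13.8 CPM with it, a log2 fold change of -1.07 ± 0.23 (adjusted p = 0.000504). JAZ6 had the reverse order in MYC2–FLAG, with 19.9, 16.6 and 19.4 CPM without and 32.8, 35.6 and 31.9 CPM with BFO, under the fold threshold.

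The calls of JAZ8 and JAZ9 for BFO in MYC2–FLAG roots under NC held with any one library left out. JAZ5 (1.32 ± 0.48) lost its call without NC −BFO replicate 2 or 3 or NC +BFO replicate 1, and JAZ7 (1.48 ± 0.56) lost it without any library but NC +BFO replicate 3. In *myc2-3* under NC, JAZ8 had 21 counts without BFO and 3 with it, a ratio of 7.29 (exact 95% counting interval 2.18 to 38.2), and was called only without NC −BFO replicate 3. The BFO response under NC differed between the genotypes for JAZ3 (-1.25 ± 0.21), JAZ6 (-1.91 ± 0.32), JAZ7 (-2.32 ± 0.81), JAZ8 and JAZ9, against 24.7% of all genes. The JAZ7 difference lost its call without any one of 3 libraries, and JAZ2 (-0.99) passed at between -1.06 and -1.02 without any one of 5. Under LP no JAZ gene passed that test by edgeR, against 33.9% of all genes, with 2 at an unadjusted p under 0.05 and none by limma-voom or DESeq2. JAZ3 there had -0.95 and passed at between -1.09 and -1.03 without any one of 3 libraries, MYC2–FLAG LP −BFO replicate 2, MYC2–FLAG LP +BFO replicate 1 or *myc2-3* LP +BFO replicate 1.

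Light had called effects on 4 JAZ genes in roots. Without BFO, JAZ2 in MYC2–FLAG had 27.5, 24 and 26.5 CPM under NC and 66.8, 62.8 and 53.5 CPM under LP, a log2 fold change of 1.23 ± 0.21 (edgeR adjusted p = 9.31e-05). JAZ9 (1.95 ± 0.49) and JAZ10 (1.93 ± 0.53) rose as well, so 3 of 10 genes were called higher against 1.92% of all genes. JAZ10 had 0.554, 0.719 and 0.756 CPM under NC and 2.95, 2.72 and 2.23 CPM under LP. For none of the 3 genes did the NC and LP libraries overlap, a description without a share over all genes. All 3 calls held with each library left out. The LP libraries also had more reads with several alignments (5.32% to 5.90%, against 1.86% to 2.88% under NC) and more reads outside genes (2.58% to 2.66%, against 1.75% to 1.88%), and the part of this in the JAZ values was not tested. In *myc2-3* without BFO, JAZ6 fell by 1.08 ± 0.23 and JAZ9 by 1.35 ± 0.39 under LP, against 1.87% of all genes called lower, and the JAZ9 call was lost without NC −BFO replicate 2 (-1.22). With BFO, JAZ9 rose under LP in *myc2-3* by 1.72 ± 0.47 (adjusted p = 0.0114), against 0.654% of all genes called higher, and lost the call without NC +BFO replicate 3 (1.53) or LP +BFO replicate 3 (1.31). In MYC2–FLAG with BFO edgeR called none, against 0.882% of all genes, with 2 at an unadjusted p under 0.05 and 1 each by limma-voom and DESeq2. The light response without BFO differed between the genotypes for JAZ6 (-1.68 ± 0.32) and JAZ9 (-3.31 ± 0.62), against 9.53% of all genes, and without *myc2-3* NC −BFO replicate 3 also for JAZ8 and for JAZ10 (-2.76). JAZ8 passed there also without *myc2-3* LP −BFO replicate 1 or MYC2–FLAG LP −BFO replicate 1. With BFO none passed by any of edgeR, limma-voom and DESeq2 or at an unadjusted p under 0.05, against 6.31% of all genes.

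Between the genotypes in roots, JAZ9 was higher in *myc2-3* under NC −BFO, with a log2 fold change of 2.79 ± 0.46 (edgeR adjusted p = 7e-06), and lower under NC +BFO, with -2.30 ± 0.44 (adjusted p = 6.67e-05), and under LP +BFO, with -1.30 ± 0.37 (adjusted p = 0.00465). Under NC −BFO the called genes were JAZ8 and JAZ9, against 4.24% of all genes called higher, and JAZ8 lost the call without *myc2-3* replicate 2. Under NC +BFO they were JAZ6, JAZ7, JAZ8 and JAZ9, all lower, against 5.04%. That count was 2 without replicate 1 of either genotype and 3 without replicate 2 of either or *myc2-3* replicate 3. Under LP −BFO JAZ10 was called, with 2.95, 2.72 and 2.23 CPM in MYC2–FLAG and 0.699, 0.510 and 0.393 CPM in *myc2-3*, a log2 fold change of -2.31 ± 0.56 (adjusted p = 0.000914), against 8.46% of all genes called lower. Under LP +BFO JAZ9 was the single call, against 8.56%. JAZ6 had -0.95 and -0.98 in the 2 LP conditions and passed at about the threshold, from -1.07 to -1.0, without any one of 6 libraries, which were MYC2–FLAG LP −BFO replicates 2 and 3, *myc2-3* LP −BFO replicate 2, MYC2–FLAG LP +BFO replicate 1 and *myc2-3* LP +BFO replicates 1 and 3.

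JAZ12 was called in none of the 24 comparisons of genotype, BFO or light, with log2 fold changes between -0.53 and 0.41. In the 24 root libraries it had 46.5 to 72.0 CPM per kb, the narrowest range in ratio of the 10 genes. JAZ9 was called in 14 of the 24 comparisons, 7 higher and 7 lower, JAZ7 in 8, JAZ10 in 6, JAZ6 and JAZ8 in 5 each, JAZ1 and JAZ5 in 4 each, and JAZ2 and JAZ3 in 2 each. Many of these comparisons share libraries, so the counts are not independent. Of all genes tested, from 3.4% (light in roots) to 13.6% (genotype in roots) were called in comparisons of these kinds. Calls per gene were not counted over all genes, so neither JAZ12 nor JAZ9 is ranked here against other genes.

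Within conditions, JAZ transcripts of shoots varied together. Over the 24 shoot libraries all 45 pairs of JAZ genes had a positive correlation of log2 CPM, with a median r of 0.66 and a median of 0.72 after the condition means were taken out. In roots 34 of 45 pairs were positive, with a median r of 0.34 and of 0.14 within conditions. In shoots JAZ9 was most like the mean of the other members (r = 0.93) and JAZ8 least (r = 0.64), and in roots JAZ7 was most like it (r = 0.70) and JAZ12 least (r = -0.39). These are descriptions over 24 libraries that share normalization, and low counts limit JAZ8. The shared deviations were largest in MYC2–FLAG shoots under LP +BFO and NC −BFO. The shoot correlations include these groups and were not recomputed without them.

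**Figure D4:**
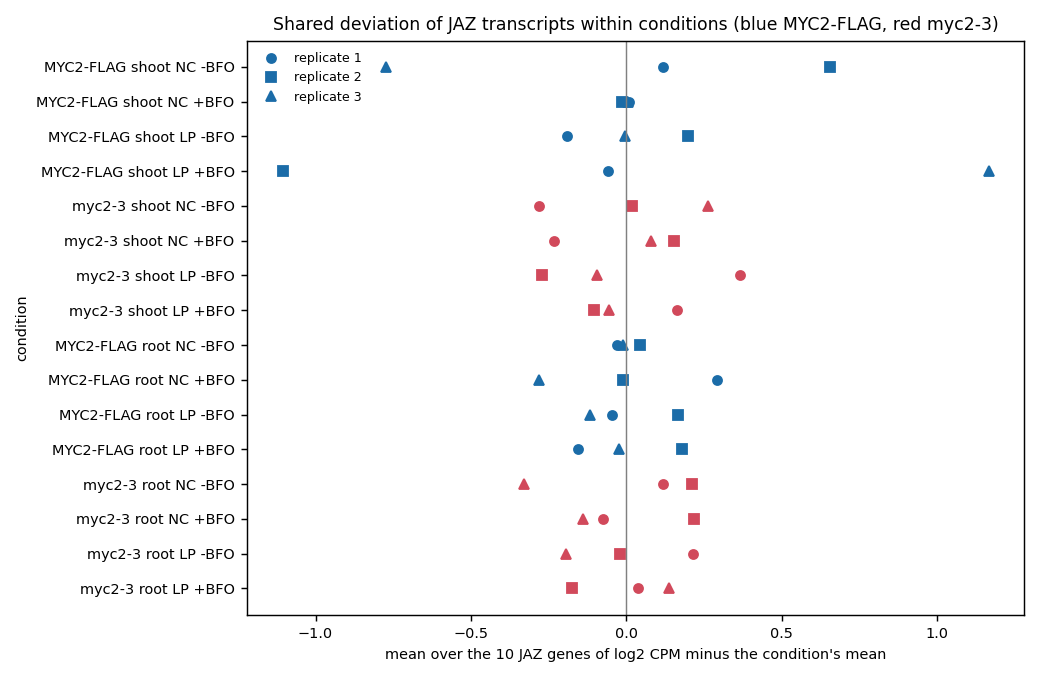
Mean over the 10 JAZ genes of log2 CPM minus the mean of the condition (horizontal axis) for each library of the 16 conditions, with blue for MYC2–FLAG, red for *myc2-3* and a symbol per replicate. MYC2–FLAG shoot LP +BFO replicates 2 and 3 lie at -1.11 and 1.17, and NC −BFO replicates 3 and 2 at -0.77 and 0.66.

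In 4 MYC2–FLAG shoot libraries all members deviated together. Under LP +BFO all 10 JAZ genes were above the condition mean in replicate 3 and none in replicate 2, and under NC −BFO all 10 were above it in replicate 2 and none in replicate 3. The other 44 libraries deviated by between -0.33 and 0.36 on the log2 scale. MYC2 had 253, 59.2 and 410 CPM in the LP +BFO libraries and 105, 147 and 79.8 CPM in the NC −BFO libraries, the same order as JAZ9. The part of this shared variation in the differences between conditions was not tested beyond leaving out each library.

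Among 21088 other genes tested, those most like the mean of the standardized JAZ transcripts over the 24 shoot libraries were AT2G41730 (r = 0.90), PGIP1 (0.89), which encodes an inhibitor of fungal polygalacturonases, IP5PII (0.88), A/N-InvC (0.87) and SCL13 (0.87). In roots they were AT1G69900 (r = 0.85), AT5G19100 (0.83), YLMG1-1 (0.82), THI1 (0.82), a thiamine synthesis gene, and AT5G26300 (0.81). MYC2 ranked 3546 in shoots (r = 0.39) and 3298 in roots (r = 0.38). Within conditions the correlation of MYC2 with the JAZ mean was 0.84 in shoots and 0.42 in roots. The shoot value includes the uneven MYC2–FLAG groups LP +BFO and NC −BFO and was not recomputed without them.

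Other genes of the JA pathway were described from chosen lists. JA catabolism genes oxidize, hydrolyse or sulfate the hormone, its precursors or their products. Their medians had the sign of the JAZ median in some shoot comparisons and the opposite sign in others. Between the genotypes in shoots under NC −BFO, 9 of 9 tested catabolism genes were lower in *myc2-3*, against 8.44% of all genes, and the median log2 fold change was -2.96 beside -1.09 for the JAZ genes and 0 for all genes. The largest were JOX4 (-6.45), JOX3 (-5.15) and JOX2 (-4.91), which encode jasmonate oxidases. For LP against NC in MYC2–FLAG shoots −BFO, 8 of 9 were lower, against 7.98% of all genes, with a median of -3.15 beside -1.23 for the JAZ genes, and for BFO in *myc2-3* shoots under NC, 7 of 9 were higher, against 8.86%, with a median of 3.47 beside 1.01. Between the genotypes in shoots under LP +BFO the catabolism median was 0.78, with 1 gene called higher and 0 lower, beside -0.70 for the JAZ genes. For light in MYC2–FLAG shoots +BFO it was -0.95, with 3 genes called lower, beside 0.51 for the JAZ genes. Of all 21098 genes, 4089 were called in either direction in the former comparison and 4007 in the latter.

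Biosynthesis genes behaved alike in part. In the genotype comparison under NC −BFO, 7 of 13 were lower, against 8.44% of all genes, and 1 was higher, with AOC3 (-3.25), OPR3 (-2.95) and AOC2 (-2.18) lowest, which encode allene oxide cyclases and OPDA reductase. Under LP in MYC2–FLAG −BFO 6 were lower, against 7.98% of all genes called lower, and 1 was higher. With BFO in *myc2-3* under NC 3 were higher, against 8.86% of all genes. The outputs of the ERF branch of the JA response, which MYC2 is known to repress, were lower for 5 of 6 genes in *myc2-3* under NC −BFO, read against the same 8.44% (PDF1.2A -5.66, PDF1.2B -3.50, PR4 -2.89) and higher for 6 of 6 with BFO in *myc2-3* under NC, against 8.86% (PDF1.2A 7.13, PDF1.2B 3.60, PR4 2.51). Of the MYC-branch outputs 2 of 6 were lower in the first comparison, ANAC055 (-2.82) and ANAC019 (-1.71), read against the same 8.44%. The receptor COI1, NINJA and TPL were called in none of these 3 comparisons. Of 6 tested MYC and JAM factors, bHLH proteins that bind the same promoters as MYC2, MYC4 was higher (1.63) and MYC2 lower (-3.23) in *myc2-3* under NC −BFO, and MYC4 fell by 1.03 with BFO in *myc2-3* under NC.

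For BFO under LP in MYC2–FLAG shoots, the comparison that rests on replicate 3 of LP +BFO, LOX4 (3.53), LOX3 (2.63), VSP2 (2.83), ANAC019 (2.44) and MYC2 (2.12) rose beside the JAZ genes. In it 4 of 13 biosynthesis genes and 3 of 6 MYC-branch outputs were called higher, against 5.54% of all genes. JAM1, a repressor of MYC2 targets, was called higher as well (1.09). Of 9 catabolism genes, JOX2 (2.24) and ILL6 (1.25), which encodes an amidohydrolase of conjugated JA, were called higher, and ST2A, a sulfotransferase of hydroxyjasmonate, fell by 2.27, with a median of 0.49 over the list. Of 8 other TIFY genes tested none was called in these 4 shoot comparisons. In roots under NC, JAZ4, a close relative of JAZ3 and JAZ9, was called with BFO in MYC2–FLAG (1.79) and in *myc2-3* (-1.66), the directions of JAZ9. ORA59, an ERF-branch activator, had 4.11 and -4.84 in the same comparisons. Averaged over the 4 conditions, no catabolism gene was called between the genotypes in shoots and AOC2 was the single biosynthesis gene (-1.16), against 1.96% of all genes.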

How the data were processed

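Members and gene lists were chosen with earlier results of these data known. The authors mapped reads to TAIR10 with TopHat2, counted them by strand on exons with HTSeq, and deposited raw counts per gene for 32678 identifiers. The 5 summary lines entered neither library sizes nor tests (between 1.23% and 4.08% of a library's counts lay outside genes). Depth ran from 5162823 to 11045467 gene counts per library.

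Counts were fitted in R 4.3.3 with edgeR 4.0.16 as 1 mean per condition over all 48 libraries, with TMM scaling, genes with more than 100 counts in total, estimateDisp, glmQLFit with its default settings and glmQLFTest. Adjusted p-values are from the Benjamini-Hochberg method over the 21098 genes tested, and genes were called at a 2-fold change or more (1 on the log2 scale) with an adjusted p below 0.05. The ± values are standard errors, taken as the size of the log2 fold change over the root of F. CPM are counts scaled to a common library total after TMM, log2 CPM used a prior count of 2, and CPM per kb divide by the length of the annotated exons. Log2 fold changes do not use this value. The prior count that some of them depend on is the default of glmQLFit. Limits and intervals on counts cover counting error only. Statements on overlap describe single libraries of JAZ genes and add no test to the calls. The step was tested on simulated counts for the genotype comparison in shoots under LP +BFO over 21057 genes. It recovered 200 of 200 genes simulated with a log2 change of 2, beside 9 false calls. All genes were simulated with the same dispersion and without an outlying library. Only genes above a set CPM in the MYC2–FLAG group were changed, a level that JAZ5, JAZ7, JAZ8 and JAZ10 did not reach. The simulation therefore does not show how the test behaves for uneven libraries or genes of low counts.

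Every JAZ gene was named. Genes of like pattern were the 5 with the highest correlation in each tissue, and of each pathway list up to 3 genes with the largest change among called ones, and MYC2, were named, except for singly named genes (COI1, NINJA, TPL, JAZ4, ORA59, RBCS1A and EXPA7), some of them chosen after their values were seen. Lists were JA biosynthesis, JA catabolism, receptor and corepressors, other TIFY genes, MYC and JAM factors, and MYC-branch and ERF-branch outputs. Promoter stretches and coordinates are from TAIR10.1 (RefSeq), joined by locus.

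Results were recomputed with DESeq2 1.42.0, limma-voom (limma 3.58.1), the size factors of DESeq2, no filter, filterByExpr, separate fits by tissue, the replicate number as a block, glmTreat, and each library left out. A fit with legacy set to FALSE, the genotype comparison averaged over conditions and the label check were added after seeing the data.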

Additional observations from a re-analysis of the deposited data

Results flagged for a closer look

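JAZ genes whose BFO or light response differed between the genotypes by the interaction test in edgeR are listed here as *myc2-3* minus MYC2–FLAG on the log2 scale. All values rest on the light and BFO labels as given, whose profiles did not all match between the genotypes. For the BFO response in shoots under NC the differences were 1.04 for JAZ2, 1.48 for JAZ3, 1.32 for JAZ6, 4.24 for JAZ7, 1.95 for JAZ9 and 3.66 for JAZ10, with adjusted p between 1.1e-05 and 0.0151. For the BFO response in shoots under LP they were -2.91 for JAZ5, -1.09 for JAZ6, -3.54 for JAZ7 and -1.30 for JAZ9, with adjusted p between 0.00453 and 0.0303, and none passed without MYC2–FLAG LP +BFO replicate 3.

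For the light response in shoots −BFO the differences were 1.01 for JAZ2, 1.88 for JAZ3, 1.19 for JAZ6, 5.65 for JAZ7, 1.69 for JAZ9 and 3.09 for JAZ10, with adjusted p between 1.29e-07 and 0.0133. For the light response in shoots +BFO they were -2.75 for JAZ5, -1.22 for JAZ6, -2.12 for JAZ7 and -1.56 for JAZ9, with adjusted p between 0.000873 and 0.0496, and none passed without the same library.

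In roots under NC the BFO response differed by -1.25 for JAZ3, -1.91 for JAZ6, -2.32 for JAZ7, -8.49 for JAZ8 and -5.09 for JAZ9, with adjusted p between 1.57e-08 and 0.0182. The JAZ8 value includes a group with 0 counts, depends on the prior count and is not a bound. The light response in roots −BFO differed by -1.68 for JAZ6 and -3.31 for JAZ9, with adjusted p of 0.000206 and 0.000164.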

How the results depend on the processing

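Of 98 called JAZ values none changed sign under any alternative, and 42 lost the call without at least 1 library. The call was lost for 66 of the 98 with glmTreat, 23 with limma-voom, 5 with DESeq2, 2 with DESeq2 size factors, 2 without a filter, 0 with filterByExpr, 0 with legacy set to FALSE, and 10 of 81 with separate fits by tissue. With glmTreat the counts of called JAZ genes were 2 in place of 6 for genotype in shoots, 3 for 8 in roots, 1 for 14 for BFO in shoots, 3 for 7 in roots, 2 for 9 for light in shoots, 0 for 6 in roots, 4 for 11 for the interaction of light and BFO, 5 for 15 for the genotype difference in BFO response and 4 for 12 for that in light response. Calls over all 21098 genes fell as well with glmTreat. For BFO in shoots they were 140 (MYC2–FLAG NC), 367 (MYC2–FLAG LP), 1344 (*myc2-3* NC) and 431 (*myc2-3* LP), in place of 1289, 2063, 3070 and 1594. With so few JAZ calls left, the glmTreat counts in shoots show no excess of JAZ genes over all genes for BFO. With limma-voom the interaction of light and BFO had 7 in place of 11. With each library left out, the counts ran from 4 to 10 for genotype in shoots, 6 to 9 in roots, 9 to 15 for BFO in shoots, 5 to 8 in roots, 6 to 12 for light in shoots, 5 to 7 in roots, 8 to 13 for the interaction of light and BFO, 11 to 16 and 8 to 14 for the genotype differences in BFO and light response, and 10 to 11 for shoot against root. Same-numbered replicates of the same tissue and genotype had a median r of -0.01 over 72 pairs, with 5 above 0.1 and the highest at 0.45. Replicates of different numbers had a median r of 0.01 over 144 pairs, with 18 above 0.1 and the highest at 0.30. Shoot and root libraries of the same number were not compared, and the shoot to root test treats them as independent. With the replicate number as a block, 96 of 98 calls remained and those of JAZ8 for BFO in MYC2–FLAG shoots under NC (-2.86, adjusted p = 0.0511) and of JAZ7 for the genotype difference in light response in shoots +BFO (-2.13, adjusted p = 0.0608) did not. Depth limits JAZ8 most.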
